A study of Homo sapiens with 6 samples.

Results

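Deep gene-body regions are short stretches of CpG sites that lie far inside long genes. They were taken from the authors' deposited table by position alone: autosomal regions with 5 to 19 CpG sites, wholly inside the span of a protein-coding RefSeq gene on hg38, and over 20000 bases from the start and the end of every RefSeq gene. The rule selected 2580 of the 35130 regions of the table, in 1142 host genes on all 22 autosomes. The rule itself uses no methylation value, but it was chosen with earlier results of these data known. How the authors made the regions of the table is not given.

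The data are reduced representation bisulfite sequencing, in which MspI-cut, CpG-rich DNA fragments are read after bisulfite conversion, of 6 libraries of M07e cells. M07e is an established line of acute megakaryoblastic leukemia, a leukemia of platelet precursors. It was grown with the cytokine GM-CSF and is known to carry the CBFA2T3-GLIS2 fusion named in the series title. The 3 control libraries had the genotype WT and the 3 others the genotype DNMT3B knockout, so that growth with GM-CSF and the parent line were shared by both groups. The labels do not say whether the libraries of a group came from separate cultures or from 1 clone. No expression was measured, so the labelled cell type was not checked against markers, and neither could the loss of DNMT3B be.

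DNMT3B is a de novo DNA methyltransferase, which adds methyl groups to CpG sites that had none. Its PWWP domain binds histone H3 trimethylated at lysine 36, the mark that transcribing polymerase leaves along gene bodies, and the enzyme is known for methylating the bodies of transcribed genes. In most mammalian cells the interior of genes is methylated while CpG-rich promoters are not. Leukemia lines often depart from that pattern. Transcription and histone marks were not measured here, so which of the host genes were transcribed is not known from these data.

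The authors' deposited table gives 1 mean methylation level per group and region, with a q-value. It holds no level of a single library, so read depth and the variation among libraries are unknown, and no difference below could be tested against replicate error. The column read as the knockout has a name found in no label, and every direction rests on that reading. A region is called here when the authors' q is under 0.01 and the 2 means differ by at least 25 percentage points. That q does not measure the spread between libraries. Intervals beside medians and shares are 95% intervals over regions and describe the set of regions only.

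The median number of CpG sites per deep region was 6 (quartiles 5 and 8), and the median length was 62 bases (quartiles 36 and 116). Together the 2580 regions covered 241 kilobases. Their median distance from the nearest gene start or end was 36.1 kilobases and the largest was 399 kilobases. The median host gene was 178 kilobases long, in a range from 41.1 to 2474 kilobases. Most host genes held a single region (682 of 1142), while 110 genes held 5 or more and together contributed 1031 regions. CpG sites were sparser than in the table as a whole, with a median of 10.7 sites per 100 bases against 12.7 for all regions and 16.1 for regions within 1000 bases of a gene start or end.

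By the medians over all its regions, deep gene-body methylation was low in the control and moderately higher in the knockout. Without group means of 0 the control median was higher and the difference smaller, as given below. In the authors' deposited table the median level of the 2580 regions was 10.3% in the control (interval 8.61 to 11.7) and 32.4% in the knockout (interval 32.1 to 32.5). The quartiles were 0% and 33.0% in the control and 22.3% and 44.2% in the knockout. The knockout mean was the higher one in 1851 regions (71.7%) and the lower one in 729, with a median difference of 24.4 points (interval 23.2 to 25.6, quartiles -3.65 and 32.5). Over all 35130 regions the medians were 7.59% and 30.9%, the median difference was 17.4 points, and 68.4% of regions were higher in the knockout. Levels under 20% were found in 1588 deep regions in the control and in 575 in the knockout.

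The largest class, 1306 regions or 50.6% of the set, went from under 20% in the control to between 20% and 80% in the knockout. It was also the largest class of all autosomal regions with 5 to 19 sites (41.6%). A further 278 regions (10.8%, against 23.5% of that background) were under 20% in both groups. Movement in the other direction was present too. From between 20% and 80% in the control to under 20% in the knockout went 291 regions (11.3%, against 11.7%). High methylation was rare in both groups. Only 66 deep regions were over 80% in the control and 124 in the knockout, and 25 (0.969%) were over 80% in both, against 0.726% of all regions. The 66 regions over 80% in the control had a median of 72.0% in the knockout, and 25 of them were still over 80% there. The 124 regions over 80% in the knockout had a median of 62.4% in the control.

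Many of these differences rest on a group mean of exactly 0. The control mean was 0 in 881 deep regions (34.1%, exact binomial interval 32.3 to 36.01), against 26.1% of all regions and 16.9% of regions within 1000 bases of a gene end. The knockout mean was 0 in 114 (4.42%). In 714 regions (27.7%) the control was at 0 while the knockout lay between 25% and 33.3%, and the mirrored pattern was found in 59 (2.29%). Knockout means were crowded just under 33.3%, which is 100% divided by the 3 libraries of a group. Between 30% and 33.3% lay 751 knockout means (29.1%, against 23.5% of all regions), and between 33.3% and 36.7% only 51. In the control the same windows held 150 and 50 regions. How much of the difference between the groups comes from these levels could not be told from group means. Among the 1585 deep regions with neither mean at 0, the medians were 25.5% in the control and 33.1% in the knockout, with a median difference of 11.4 points. The corresponding median difference over all regions was 3.34 points.

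**Figure D1:**
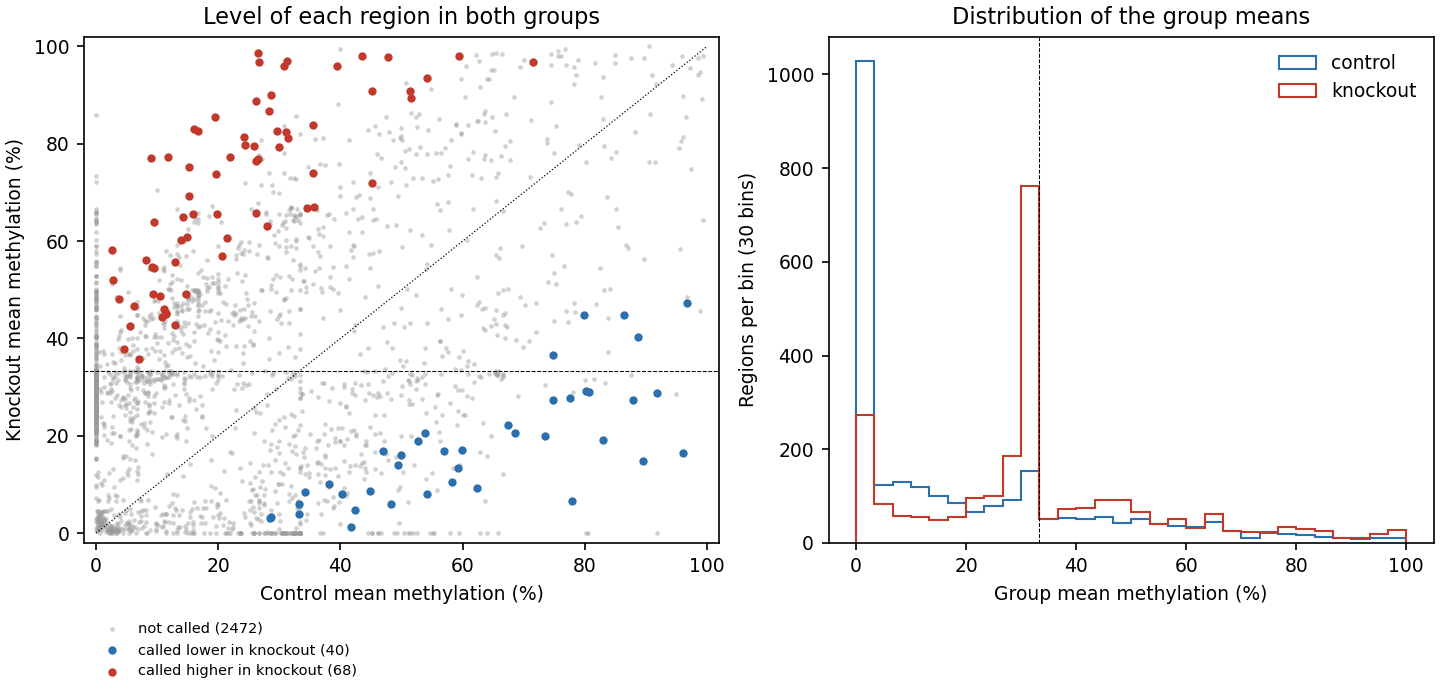
Levels of the 2580 deep gene-body regions. On the left each point is 1 region, with its control mean on the x axis and its knockout mean on the y axis (both in percent), coloured by call. The dotted line marks equal levels and the dashed line 33.3%. On the right are the numbers of regions per bin of level for each group. The control means pile up at 0, the knockout means pile up just under 33.3%, and no called region has a mean of 0. That absence may follow from the way q was derived.

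Called regions made up a smaller share of deep gene bodies than of the whole table. Of the 2580 deep regions, 108 were called (4.19%, exact binomial interval 3.45 to 5.03), against 6.74% of all regions and 5.61% of all autosomal regions with 5 to 19 sites. The shares of the latter are the closer background, since regions with 20 or more sites cannot be members. Lower in the knockout were 40 deep regions (1.55%, interval 1.11 to 2.11), beside 2.17% of all regions and 1.98% of autosomal regions with 5 to 19 sites. Higher in the knockout were 68 (2.64%, interval 2.05 to 3.33), beside 4.57% and 3.64%. The share called lower is close to its background, and the share called higher lies below it. All called deep regions had both means above 0. Regions with neither mean at 0 made up 61.4% of the deep regions but 69.2% of each background. The part this plays in the lower shares was not tested, and no test of these differences was made.

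A large difference was seldom a call. At least 25 points separated the means of 1536 deep regions, and 108 of them (7.03%) were called. Of the 1262 regions at least 25 points higher in the knockout 5.39% were called, and of the 274 at least 25 points lower 14.6%. A mean of 0 was present in 807 of the 1262 and in 85 of the 274. Among those without one, 14.9% of 455 higher and 21.2% of 189 lower regions were called. None of the 881 regions with a control mean of 0 and none of the 114 with a knockout mean of 0 was called. Such regions may have been unable to reach a call whatever their difference, so this absence is no result about them. The largest differences of the set belong to regions with a mean of 0. A region of B3GALT1, which encodes a galactosyltransferase, had means of 0% (control) and 85.9% (knockout), and a region of PRKCZ, the atypical protein kinase C zeta, at 91.8% and 0%. Both have a q of 1 in the authors' deposited table, although the Mann-Whitney p-values given there are 1.21e-05 and 3.07e-06. The 2-dimensional Kolmogorov-Smirnov p-values given there are not small for either region. Among called regions q rose with the Kolmogorov-Smirnov p-value and not always with the Mann-Whitney one. These 2 regions were picked after their values were seen.

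Called regions had more CpG sites than the others, with a median of 7 in losses and 10 in gains against 6 in regions not called. The 40 called lower regions had a median of 59.6% in the control and 16.6% in the knockout, and 10 of them were over 80% in the control. The 68 called higher regions had a median of 21.0% in the control and 73.9% in the knockout, and 24 of them were over 80% in the knockout. A count of 10 or more sites was found in 11 of the 40 and in 36 of the 68, but in 367 of the 2472 regions not called.

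The losses with the largest change lay in genes of varied function. The region in SPTBN4, which encodes a spectrin of the membrane skeleton, at chr19:40489510-40489535, had 8 sites with a control mean of 96.1% and a knockout mean of 16.4% (q 2.52e-06). In CRTAC1, a secreted matrix protein, the region chr10:97923315-97923335 had levels of 89.5% and 14.8%. In HPSE2, a heparan sulfate-binding relative of heparanase, chr10:99232881-99232890 had 77.9% and 6.67%. These 3 regions went from largely methylated to largely unmethylated.

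Of the next 4 losses, RIMBP2, a scaffold of the presynaptic release zone, held a region with 83.0% and 19.05%. CTNND1, the catenin that binds the juxtamembrane part of cadherins, held one at 91.9% and 28.8%. PTPRN2, a phosphatase-like receptor of secretory vesicles, held one at 88.0% and 27.5%, and ZNF469, a zinc finger gene, one at 73.6% and 20.0%. The last 3 of the 10 were ADAMTS2, the procollagen N-proteinase, with 62.4% and 9.21%, CAMTA1, a calmodulin-binding transcription activator, with 80.7% and 29.1%, and SCNN1B, a subunit of the epithelial sodium channel, with 80.2% and 29.3%. The control mean of each of the 10 was over 60% and the knockout mean under 30%.

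Of the 10 largest gains, 4 ended over 95%. ACACB, the acetyl-CoA carboxylase of the mitochondrial surface, held at chr12:109246233-109246319 a region of 11 sites with a control mean of 26.6% and a knockout mean of 98.8% (q 2.57e-08). SULF1, an extracellular heparan sulfate sulfatase, held one at chr8:69492598-69492610 with 26.7% and 96.8%. SLIT3, a ligand of ROBO receptors, held one at chr5:168824304-168824325 with 8.95% and 77.2%. The ACACB region has the larger number of sites and the smallest q of these 3.

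GAK, a kinase of clathrin uncoating, had 15.97% and 83.0%, and a second called region of PTPRN2 19.4% and 85.6%. ST18, a zinc finger transcription factor, had 16.7% and 82.6%, and CFAP46, a protein of the ciliary axoneme, 31.3% and 97.1%. RAP1GAP2, a GTPase-activating protein for the small GTPase Rap1, had 11.7% and 77.3% over 13 sites (q 4.4e-07). DAB2IP, a Ras GTPase-activating protein, had 30.8% and 96.0%, and HYDIN, a protein of the ciliary central pair, 26.3% and 88.8%. HYDIN has a near-identical copy elsewhere in the genome, so reads could have been split between them and its value is uncertain. All 10 gains began from a control mean under 35%.

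**Figure D2:**
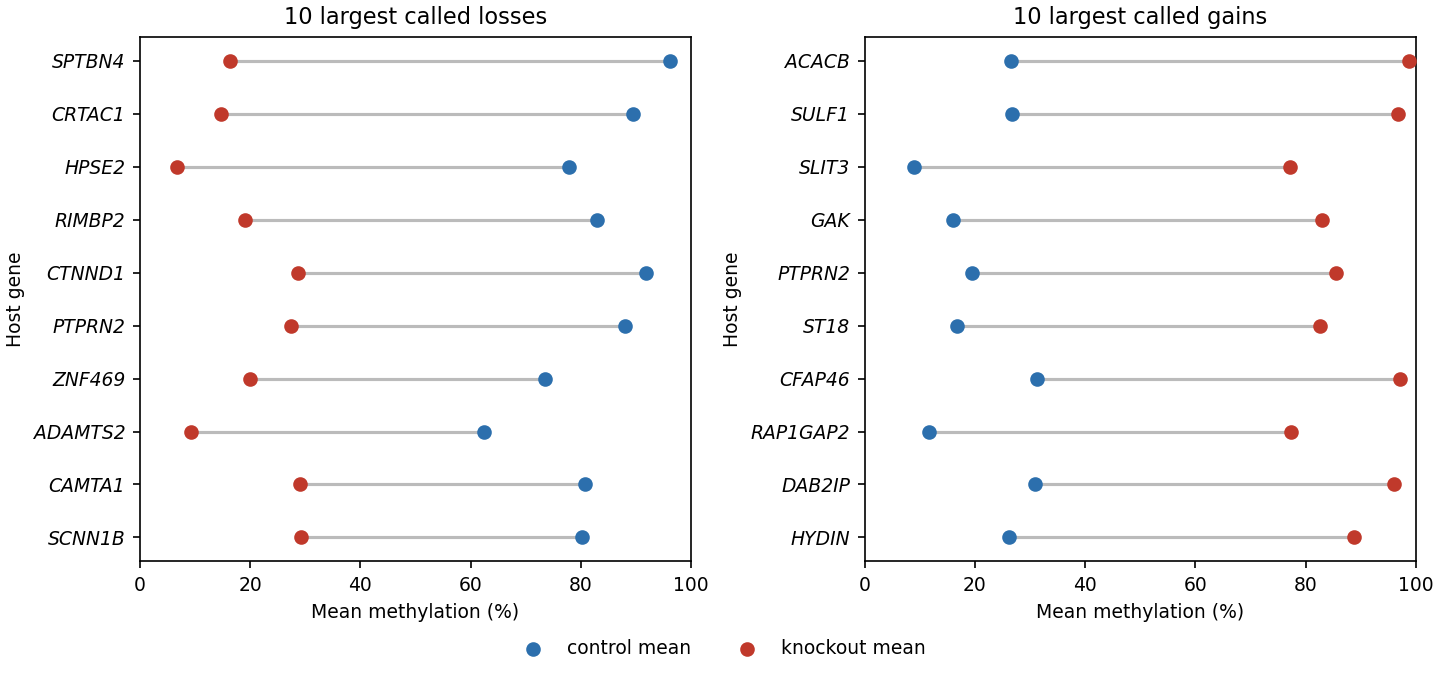
Mean methylation in percent (x axis) of the 10 called deep regions with the largest loss (left) and the 10 with the largest gain (right), each named by its host gene. A line joins the control mean (blue) to the knockout mean (red). Group means have no error bars because the table gives 1 value per group. Losses start between 62.4% and 96.1% and gains end between 77.2% and 98.8%.

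Some genes held losses and gains side by side. A called region was found in 94 of the 1142 host genes (8.23%), 39 of them with a loss and 63 with a gain, so that 8 genes held both. These counts of genes are given without a like share over all genes of the table. Only 11 genes held more than 1 called region. PTPRN2 had 2 losses and 2 gains. INPP5A, the inositol polyphosphate 5-phosphatase that ends calcium signalling by inositol trisphosphate, had 3 gains. The other 9 genes had 2 each, and of these ACACB, CFAP46 and CASZ1, which have the largest called differences, are described next. DSCAML1 and NRXN3, also with 2, had gains only.

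In ACACB the loss lay 80.7 kilobases and the gain 135 kilobases from the gene's 5′ end. The loss, at chr12:109191809-109191904, had 59.95% in the control and 17.1% in the knockout. In CFAP46 a region of 18 sites had 49.9% and 16.1%, on the same gene as the gain to 97.1%. CASZ1, a zinc finger transcription factor, held a region of 11 sites with 15.2% and 75.3% and one of 5 sites with 48.2% and 6.06%. The other 4 genes with both directions were KCNT1, KCNQ1, PTPRF and FGF14, with 1 loss and 1 gain each. In FGF14, a fibroblast growth factor homologue that binds sodium channels, the loss (49.5% to 14.0%) and the gain (2.60% to 58.3%) were 402 bases apart.

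Host genes with many regions showed how mixed a single gene body was. PTPRN2 held 51 deep regions, the most of any gene. Their control median was 25.7% and their knockout median 28.1%, with 26 regions higher and 25 lower in the knockout and differences from -80.2 to 73.3 points. Both of these extremes have a mean of 0 in 1 group and were not called. The 4 called regions went from 19.4% to 85.6% and from 20.6% to 56.9% (gains) and from 88.0% to 27.5% and from 47.0% to 17.0% (losses). The gain to 85.6% and the loss to 27.5% lay 146 and 155 kilobases from the gene's end with the lower coordinate.

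RBFOX3, the neuronal splicing regulator known as NeuN, held 42 regions with medians of 25.4% in the control and 32.1% in the knockout. Of these 28 were higher and 14 lower, and the differences ran from -40.7 to 45.7 points. Its highest difference was its single call, at chr17:79379589-79379699, with 19.8% in the control and 65.5% in the knockout. GSE1, a coiled-coil protein of histone deacetylase complexes, held 30 regions and was the least methylated of these genes, with medians of 1.58% and 20.5%. None of its regions was called, its differences ran from -21.5 to 38.2 points, and 11 regions had a control mean of 0.

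INPP5A had the most called gains of any host gene and no called loss. Its 29 regions had medians of 5.56% and 32.5%, with 23 higher and 6 lower, and 14 of them had a control mean of 0. The called gains were 10.8% to 44.5%, 35.5% to 83.8% and 13.9% to 60.3%. CDH4, the R-cadherin of cell adhesion, held 24 regions with medians of 20.5% and 33.0%. There 16 regions were higher and 8 lower, between -34.1 and 45.2 points, and none was called.

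**Figure D3:**
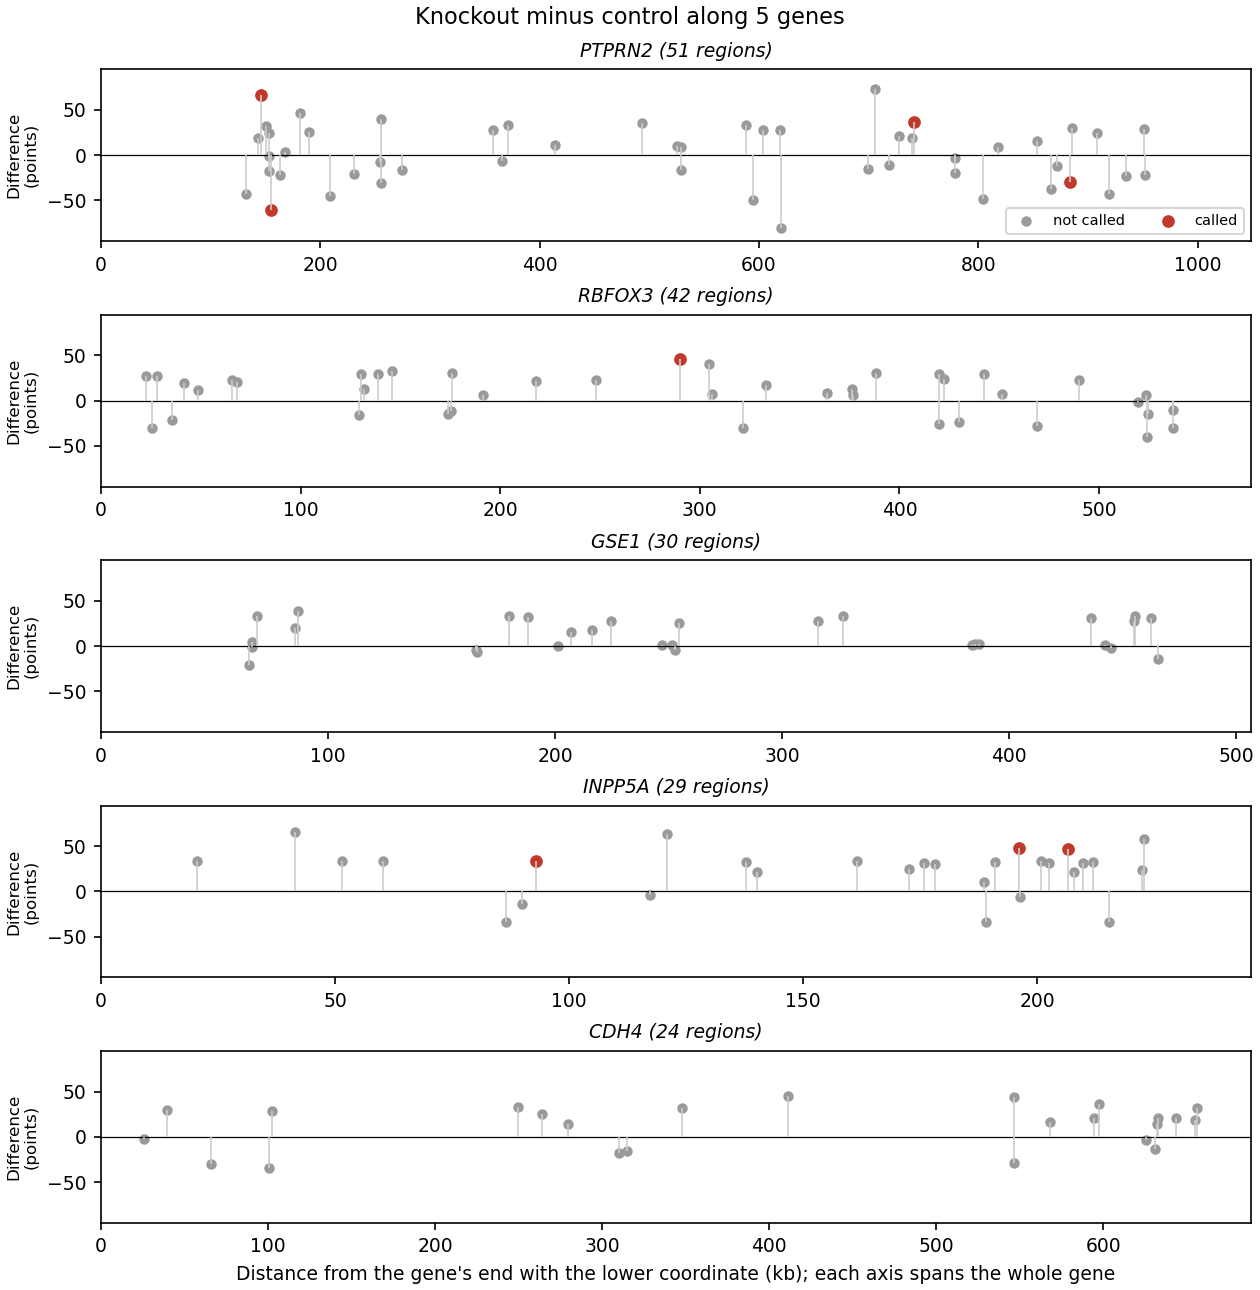
Knockout minus control difference in percentage points (y axis) of each deep region of the 5 host genes with the most such regions, by its distance in kilobases from the gene end with the lower coordinate (x axis, spanning the whole gene). Called regions are red and the others grey. In PTPRN2 the 51 differences lie on both sides of 0 along the gene, with 26 higher and 25 lower, while 23 of the 29 INPP5A regions are higher.

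Across the gene lists the control medians ran from 0.0926% to 24.2% and the knockout medians from 28.9% to 32.9%. The 10 lists name 449 symbols, and 216 of these genes held 893 of the deep regions. Called regions made up 4.37% of the regions in a list and 4.09% of the 1687 regions in none. Because members of a gene share their sequence context and the lists are small, counts are given without a test, beside the medians of all deep regions (10.3% and 32.4%) and the 4.19% called among them.

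The list of neuronal adhesion and synapse genes was the largest, with 219 regions in 45 genes. It also holds RBFOX3, the splicing regulator described above, with 42 of these regions and 1 of the called gains. The medians of the list were 21.2% in the control and 32.4% in the knockout. In it 11 regions (5.02%) were called, 2 lower and 9 higher. The gains included both called regions of NRXN3, a presynaptic neurexin (71.5% to 96.9% and 45.1% to 90.8%), and both of DSCAML1, an immunoglobulin-family adhesion molecule (26.6% to 76.8% and 31.1% to 82.5%). Ion channels and neurotransmitter receptors had 59 regions in 22 genes, with medians of 18.9% and 32.6%. The list does not hold every channel gene: SCNN1B, described above, is not in it. All 4 calls of the list were in KCNT1, a sodium-activated potassium channel, and KCNQ1, a voltage-gated potassium channel. KCNT1 had a loss from 86.4% to 44.8% and a gain from 51.3% to 90.9%, and KCNQ1 a loss from 33.2% to 3.96% and a gain from 14.8% to 60.8%.

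Receptor protein tyrosine phosphatases, which remove phosphate from tyrosines or have lost that activity, had the highest share of calls of the 10 lists. Of 68 regions in 8 genes 8 (11.8%) were called, 4 in each direction, and 51 of the 68 regions belong to PTPRN2. The group's medians were 24.2% in the control and 28.9% in the knockout, and its median difference of 9.18 points was the smallest of the 10. Outside PTPRN2, PTPRF had a gain from 14.3% to 64.9% and a loss from 53.8% to 20.5%, PTPRD a loss from 88.7% to 40.2%, and PTPRS a gain from 47.8% to 97.8%.

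Transcription factors and cofactors of blood cells had 58 regions in 19 genes, with medians of 6.88% and 32.4%. The 3 calls were all gains. PRDM16, a zinc finger regulator of hematopoietic stem cells, had the most regions of the list (21, medians 14.8% and 21.8%), and its called region went from 35.6% to 74.1%. The others were in BCL11B, a factor of T cell development (51.6% to 89.4%), and HLF, a bZIP factor of hematopoietic stem cells (24.5% to 79.8%). CUX1, a homeodomain factor, had 6 regions with medians of 3.21% and 32.3% and none was called.

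Kinase and phosphoinositide signalling had 108 regions in 21 genes, with medians of 8.87% and 32.5% and 4 called gains, 3 of them in INPP5A. PRKAG2, a regulatory subunit of AMP-activated kinase, had 13 regions with medians of 11.2% and 32.1% and no call. Small GTPase regulators had 101 regions in 26 genes, with medians of 11.7% and 32.5%, 1 called loss and 2 called gains. VAV2, a guanine nucleotide exchange factor, had 23 regions, 1 of them called with a gain from 15.8% to 65.6%. AGAP1, an Arf GTPase-activating protein, had 10, 1 of them called with a loss from 79.9% to 44.8%.

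The lowest control levels were found in genes of chromatin and in fragile site genes, very long genes at which chromosomes break under replication stress. Chromatin and transcription regulators had 120 regions in 28 genes with medians of 2.16% and 32.2%, and 1 region (0.833%) was called, the loss in CAMTA1. A control mean of 0 was found in 44.2% of these regions. GSE1, described above, held 30 of the 120 regions, with a control median of 1.58%. The list does not hold every transcription regulator: ST18 and CASZ1, described above with called regions, are not in it. KDM4B, a histone demethylase, had 19 regions, 10 of them with a control mean of 0, and medians of 0% and 33.3%. Fragile site genes had 13 regions in 9 genes with medians of 0.0926% and 32.9%, and none was called. DAB1, an adaptor of Reelin signalling, had 4 regions, with levels in the control of 0%, 0%, 4.85% and 36.8%, and in the knockout of 32.9%, 33.3%, 26.5% and 50.3% in the same order. WWOX, an oxidoreductase with WW domains, had 2 regions with median levels of 3.42% and 18.4%.

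The last 2 lists held more losses than gains among few calls, which holds for the listed genes only. Genes of the cytoskeleton and cell division had 72 regions in 19 genes, with medians of 12.5% and 30.03% and 2 called losses. In that list MAD1L1, a spindle checkpoint protein, had 15 regions (medians 2.50% and 32.1%), with no call. The list does not hold every cytoskeletal gene. SYNE2 (12.9% to 42.8%) and UTRN (13.0% to 55.8%), both with a called gain, are not in it. These 2 genes were picked after their values were seen. Extracellular matrix genes and adhesion receptors had 75 regions in 19 genes, with medians of 7.36% and 31.2%, 2 called losses and 1 called gain. ADAMTS2 had 8 of its 12 regions lower in the knockout, with medians of 29.0% in the control and 17.4% in the knockout. SMOC2, a secreted calcium-binding matrix protein, had 12 regions with medians of 10.2% and 32.5% and none called.

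The median difference was small next to gene ends and larger beyond the first 1000 bases. The set here is autosomal regions with 5 to 19 sites wholly inside a protein-coding gene. Those 1 to 1000 bases from the nearest gene start or end had a median difference of 2.34 points. It was 24.0 points at 1001 to 5000 bases and 26.2 at 5001 to 20000. For deep regions it was 25.4 points at 20001 to 50000 bases, 23.9 at 50001 to 100000 and 21.4 beyond 100000 bases (interval 15.5 to 23.3, 191 regions). A control mean of 0 was found in 15.1% of the regions in the first class and in 32.2% in the second. Without regions that have a group mean of 0 the 6 medians, from the gene end inward, were 1.66, 8.92, 13.3, 11.6, 11.9 and 8.47 points. Control medians of the same 3 classes of deep regions were 9.09%, 12.5% and 14.6%, while the knockout medians stayed between 32.3% and 32.6%. The share of regions under 20% in both groups was 41.7% next to gene ends and between 10.5% and 10.8% in the 3 deep classes. Called regions made up 7.63% next to gene ends and 3.94%, 5.22% and 3.14% in the deep classes.

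**Figure D4:**
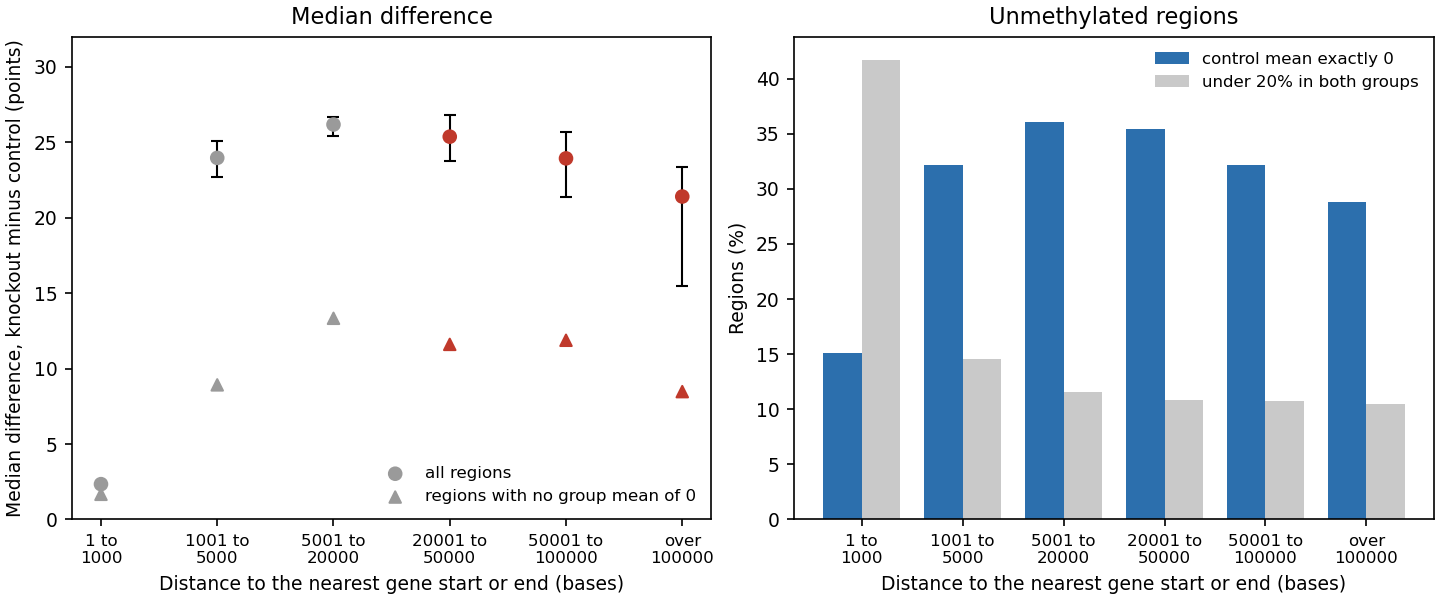
Regions with 5 to 19 sites wholly inside autosomal protein-coding genes, by distance in bases from the nearest gene start or end (x axis, 6 classes). On the left, circles are the median knockout minus control difference in points, with 95% intervals over regions as bars, and triangles the median without regions that have a group mean of 0, with the 3 deep gene-body classes in red. On the right, bars give the percent of regions with a control mean of 0 and of regions under 20% in both groups. The step from 2.34 to 24.0 points between the first and the second class is one from 1.66 to 8.92 points without means of 0.

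Regions outside all genes and over 20000 bases from any had a higher control level than the deep regions. These 1395 regions had medians of 14.8% (interval 12.7 to 17.1, against 8.61 to 11.7 in the deep regions) and 31.9%, a median difference of 21.9 points and 3.80% called. Regions inside protein-coding genes at 1001 to 20000 bases from a gene end (9697) had 8.13%, 32.2%, 25.2 points and 4.90% called. Intervals of the median difference were 20.1 to 23.3 points outside genes and 24.5 to 25.8 in the shallower gene body, and that of the deep regions, 23.2 to 25.6, overlaps both. Without group means of 0 the median differences were 12.2 points outside genes, 11.7 in the shallower gene body and 11.4 in the deep regions. At the threshold itself, the 50 members nearest to it (20009 to 20354 bases) had medians of 13.7% and 33.0% with 2 called. The 50 regions just outside (19667 to 19997 bases) had 3.85% and 31.4% with 1 called.

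The number of sites moved with the calls. Among deep regions with 5 sites (1101) the median difference was 18.0 points and 2.63% were called, and with 6 sites (382) the values were 28.6 points and 2.09%. With 7 to 9 sites (683) they were 24.99 points and 3.51%, and with 10 to 19 sites (414) 30.6 points and 11.4%. At the edges of the rule, the 10 members with 19 sites had medians of 23.8% and 32.6% with 3 called, and the 10 regions with 20 sites that meet every other condition had 10.8% and 34.2% with 2 called. Site density moved with the calls as well. Over 20 sites per 100 bases 9.04% of the regions were called, with a median difference of 14.3 points. Under 5 sites per 100 bases 1.41% were called, with a median difference of 24.4 points. Without group means of 0 the median differences were 6.04, 15.9, 12.9 and 23.1 points for the 4 classes of site number, and 2.19 and 17.2 points for the dense and the sparse regions. The part that depth or site number plays in these calls was not tested.

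Along the gene, from its start to its end, the 1996 regions whose host gene has a strand in the annotation tables were divided into 4 parts of equal gene length. The share called was 6.35%, 4.04%, 3.66% and 2.53% from the first part to the last. The share with a control mean of 0 was 29.8%, 33.2%, 34.1% and 39.0% in the same order. Median differences were 20.8, 23.1, 25.9 and 26.9 points, but 4.70, 12.1, 12.4 and 10.8 points without regions that have a group mean of 0. By host gene length, 3.48% were called in genes under 100 kilobases, 3.46% at 100 to 200, 5.15% at 200 to 500 and 4.398% over 500. By chromosome the share called ran from 0% on chromosomes 15, 21 and 22 to 6.78% on chromosome 14, which held 59 regions.

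The 3 regions farthest from any gene end were not called. In PARD3B, a cell polarity protein, the region chr2:205221339-205221375 was 399 kilobases from the nearest gene end and had 0% in the control and 32.8% in the knockout. In RBFOX1, a splicing factor, 2 regions at 386 and 388 kilobases had 57.7% and 68.1%, and 20.0% and 41.3%. All 3 were higher in the knockout.

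Neighbouring deep regions often had unlike levels. Within the same gene and up to 1000 bases apart there were 272 pairs of adjacent regions, in 181 genes. In 104 pairs both regions were higher in the knockout, in 35 both were lower, and in 133 (48.9%) they went opposite ways. Across pairs Pearson's r was 0.046 for the control level, 0.009 for the knockout level and -0.084 for the difference. These correlations are descriptions, since the pairs share libraries and some share a region. How the boundaries of regions were set is not given. Unlike levels of close or touching regions could be partly built in if boundaries were placed where levels change, which was not tested. The median gap between the control levels of a pair was 18.7 points. At a distance of up to 100 bases, 65 of 133 pairs (48.9%) still went opposite ways. In these pairs r was -0.04 for the control level and 0.16 for the knockout level. In the 139 pairs farther apart the values were 0.11 and -0.14. Of the 152 pairs with no mean of 0, 52.6% went opposite ways. Among the 2856 pairs inside coding genes at 1 to 20000 bases from a gene end 45.6% went opposite ways. In these pairs r was 0.14 for the control level and 0.22 for the knockout level. Unlike the shallower gene body above, that set includes regions within 1000 bases of a gene end. The part that regions so close to gene ends play in its values was not tested.

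Of the 25 pairs with a called region 16 went opposite ways and 1, in FGF14, had both regions called. In DLGAP4, a postsynaptic scaffold, 2 regions that touch had 77.7% in the control and 27.8% in the knockout, and 10.2% and 31.6%. In BAIAP2, an adaptor of actin remodelling, 2 touching regions had 9.20% and 20.8%, and 42.4% and 4.76%. In DLGAP2, another postsynaptic scaffold, a region with 90.6% and 86.0% lay 35 bases from one with 9.52% and 54.4%. LRRFIP1 held a touching pair of 1 direction, with 31.4% and 81.1%, and 36.7% and 56.9%. These pairs were picked after their values were seen.

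**Figure D5:**
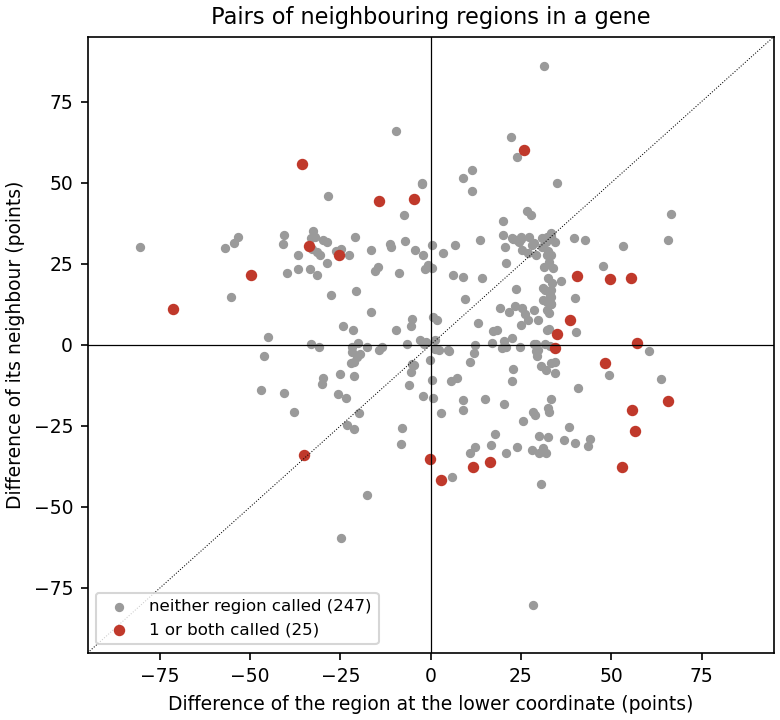
Knockout minus control differences, in percentage points, of the 272 pairs of neighbouring deep regions in the same gene and up to 1000 bases apart. The region at the lower coordinate is on the x axis and its neighbour on the y axis, and the dotted line marks equal differences. Red points are the 25 pairs in which 1 or both regions were called. The points spread over all 4 quadrants, and 133 pairs lie in the 2 quadrants of opposite direction.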

How the data were processed

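Methylation was measured by reduced representation bisulfite sequencing in 3 control and 3 DNMT3B knockout libraries of M07e cells. Tools listed in the submitters' processing notes are Bismark, HISAT2, methylKit, Trimmomatic and FastQC, and the build is hg38, without versions or roles. Not given in the sources used here are the program that made the regions, its coverage filter and the way q was derived. In the table, the authors deposited 1 mean methylation level per group and region in percent, the difference in points, the number of CpG sites, and a q-value with a Mann-Whitney and a 2-dimensional Kolmogorov-Smirnov p-value. Depth and single libraries are unknown, so no test between libraries was made.

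Regions were placed by position on RefSeq genes (GRCh38.p14), with coordinates printed 1-based. Strand was known for the host genes of 1996 members. Exons and introns were not used here, and no sequence was printed. The members and the 10 gene lists were chosen with earlier results of these data known. Named are the 10 largest called losses and gains (1 per host gene), the 5 genes with most members and the 5 with most called members, 2 genes per list by number of members, and the 3 members farthest from a gene end, and 1 gene so chosen is not reported here. Other names are said to be chosen later, except genes of called regions in a list or with both directions. Intervals of shares are exact (Clopper-Pearson) and those of medians come from order statistics. Alternatives changed the distance, the gene ends, the site numbers, the thresholds and the handling of means of 0. Scripts used Python 3.11.15, pandas 2.3.3, numpy 2.4.6, scipy 1.17.1 and matplotlib 3.10.9, and were tested on simulated data.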

Additional observations from a re-analysis of the deposited data

How the results depend on the processing

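No paired analysis was possible because the deposited table has 1 mean per group and no value of a single library, so replicate numbers could not be used and no library could be left out. The median difference kept its sign under every alternative tried. Over all alternatives, 29 values stayed within 1.5 times (counts) or the interval over regions (medians), and 51 did not. With a distance of over 10000 bases there were 4694 regions, with over 50000 bases 804, with the ends of protein-coding genes only 4403, and with 8 to 19 sites 777. In the order of over 10000 bases, over 50000 bases and coding ends only, 73, 15 and 80 regions were called lower and 132, 23 and 135 higher, in 179, 32 and 179 genes, and 1618, 252 and 1470 had a control mean of 0. Of those over 80% in both groups there were 39 with over 10000 bases and 6 with over 50000. With 8 to 19 sites 18 were called lower and 39 higher in 54 genes, 322 had a control mean of 0 and 1 was over 80% in both. With 1 region per host gene 22 were called lower and 41 higher, 447 had a control mean of 0 and 8 were over 80% in both. A q under 0.05 gave 75 lower, 119 higher and 159 genes, and a q under 0.001 gave 14, 33 and 44. A difference of at least 40 points gave 24 lower and 44 higher. Over 70% in both groups were 55 regions and over 90% 10.

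Median differences were 22.8 points at over 50000 bases, 30 with 8 to 19 sites, 28.9 with 1 region per gene and 11.4 without means of 0. Control medians in that order were 13.3%, 5.68%, 6.67% and 25.5%. Knockout medians were 32.5% at over 50000 bases and with 1 region per gene, and 33.1% without means of 0. In an alternative chosen after seeing the data, regions at 0 in a group and 25% to 33.3% in the other were left out. The medians were then 21.1% in the control, 32.8% in the knockout and 14.0 points for the difference. The cause of these shifts was not tested beyond the construction of each alternative, which changes the regions counted.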

Other observations

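Regions that meet the position rule but lie outside its chromosome or site limits held further calls, which are given beside the share called among all regions of like chromosome and site number. With 20 or more CpG sites there were 63 such autosomal regions in 59 genes, with medians of 4.79% in the control and 33.0% in the knockout, and 20 of them (31.7%, exact binomial interval 20.6 to 44.7) were called, 5 lower and 15 higher. Of all 1303 autosomal regions with 20 or more sites 37.99% were called. The largest called gain was in RXRA, the retinoid X receptor alpha, where 21 sites at chr9:134417116-134417228 had 16.6% and 73.1% (q 4.5e-07). LRRK1, a kinase with leucine-rich repeats, had 2.80% and 41.9%, and KSR2, a scaffold of MAP kinase signalling, had 5.02% and 41.4% over 46 sites. Among the called regions PYY, which encodes the gut hormone peptide YY, had the largest loss, from 62.2% to 27.1%. These genes were picked after their values were seen. PTPRN2 and RBFOX3 each held 1 more called gain here, from 13.6% to 45.8% and from 12.5% to 44.9%.

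On the X chromosome 33 regions of 23 genes met the rule, with medians of 8.69% and 32.9%, and 4 (12.1%, interval 3.40 to 28.2) were called, against 3.17% of all 1040 X regions with 5 to 19 sites. Gains were called in PAK3, a p21-activated kinase (28.7% to 76.4%), SHROOM2, an actin-binding protein (5.56% to 44.5%), and BCOR, a transcriptional corepressor (12.1% to 44.4%, q 6.38e-08). WNK3, a kinase that regulates ion transport, had a called loss from 70.3% to 20.2%.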
